A study of Saccharomyces cerevisiae with 18 samples.

Results

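The genes described here are 33 genes of Saccharomyces cerevisiae that take up sulfate and sulfur amino acids, reduce sulfate to sulfide, build homocysteine, methionine and cysteine from it, turn the methyl cycle, or regulate these steps. They were chosen by gene symbol in the array annotation, and all 33 were found, each on 1 probe set, among the 5449 yeast genes tested. By step, 10 genes belong to sulfate assimilation and homocysteine formation (MET3, MET14, MET16, MET22, MET5, MET10, MET1, MET8, MET2 and MET17), 8 to the methyl cycle (MET6, MET12, MET13, SAM1, SAM2, SAH1, SAM4 and MHT1), 4 to transsulfuration (STR2, STR3, CYS3 and CYS4), 6 to transport (SUL1, SUL2, MUP1, MUP3, MMP1 and SAM3) and 5 to regulation (MET4, MET28, MET30, MET31 and MET32).

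The study asked how the yeast cell responds to secretion of a recombinant protein with and without Hac1p, which activates genes of the endoplasmic reticulum when unfolded proteins build up. Strain dA was Δhac1 making α-amylase, dI was Δhac1 making insulin precursor (IP), and dN was Δhac1 with the empty vector, and WA, WI and WN carried the same vectors in the wild type. All strains were CEN.PK 113-5D, a MATa ura3 strain, and carried a high-copy URA3 plasmid with the constitutive TDH3 promoter, which drove the secreted protein in dA, dI, WA and WI and nothing in dN and WN. In the deletion HAC1 was replaced by a kanMX cassette copied from a laboratory strain that is itself a met15 mutant (MET15 is another name of MET17). The cultures were aerated batch fermentations in a medium of yeast nitrogen base with added amino acids, methionine among them, sampled in exponential growth, with 3 cultures and 3 arrays per strain (18 arrays in all). Values are log2 signals, so a difference of 1 is a doubling of the signal. They come from whole cultures, in which a smaller share of expressing cells and less RNA per cell cannot be told apart.

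Yeast imports sulfate through the permeases Sul1p and Sul2p, activates it with ATP, reduces it to sulfite and then to sulfide, and joins the sulfide to O-acetylhomoserine to give homocysteine. Homocysteine is methylated to methionine, which becomes S-adenosylmethionine, the methyl donor of the cell, or is passed through cystathionine to cysteine and glutathione. The activator Met4p switches these genes on with Cbf1p, Met28p, Met31p and Met32p, and the ubiquitin ligase subunit Met30p holds it in check when sulfur amino acids are plentiful.

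HAC1 itself read 1.08 to 1.75 in the 9 deletion arrays, at the level of probe sets that match no tested gene, and 10.54 to 10.96 in the 9 wild-type arrays. URA3, the plasmid marker, read 8.71 to 8.91 in dA, 9.97 to 10.13 in dI and 12.2 to 12.49 in dN. It read 9.98 to 10.19 in WA, 10.81 to 10.93 in WI and 11.96 to 12.14 in WN. Strains with the same vector thus differed in the marker signal, and the part of this in the results was not tested. MET17 read 9.13 to 10.12 in the deletion arrays and 9.23 to 10.47 in the wild-type arrays, so that the gene missing in the donor of the cassette was expressed in both backgrounds. Array dN 3 stood apart from the other 17: its residual SD over all genes was 0.361, against 0.0768 to 0.250 in the others. Counts of called genes below are therefore also given without that array, and so are many, but not all, of the single calls that change. The 6 a-cell genes examined (6.72 to 10.2) were above background in every array. Of the 4 α-cell genes, MF(ALPHA)2 was at background in every array and SAG1 (5.54 to 5.91) above it in every array. MF(ALPHA)1 was above background in all arrays except 2 of dN and highest in WA (7.43 to 7.96), and STE3 (4.05 to 6.09) was above it in all arrays except 1 of dN and the 3 of dA. The part of these differences in the results was not tested.

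Of the 33 genes, 28 were above the background level (log2 4.38 to 4.63, by array) in all 18 arrays. SUL1, a high-affinity sulfate permease, was at or below background in all 18. MET2, MMP1, MET28 and MET32 were at background in some arrays, MET2 in 2 of 3 WA arrays and MMP1 in 1 of 3, and a change of these genes against WA may be understated. No probe set of the 33 carries a suffix for shared probes, although SAM1 and SAM2 are closely similar genes. Cross-hybridization between them was not tested.

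**Figure D1:**
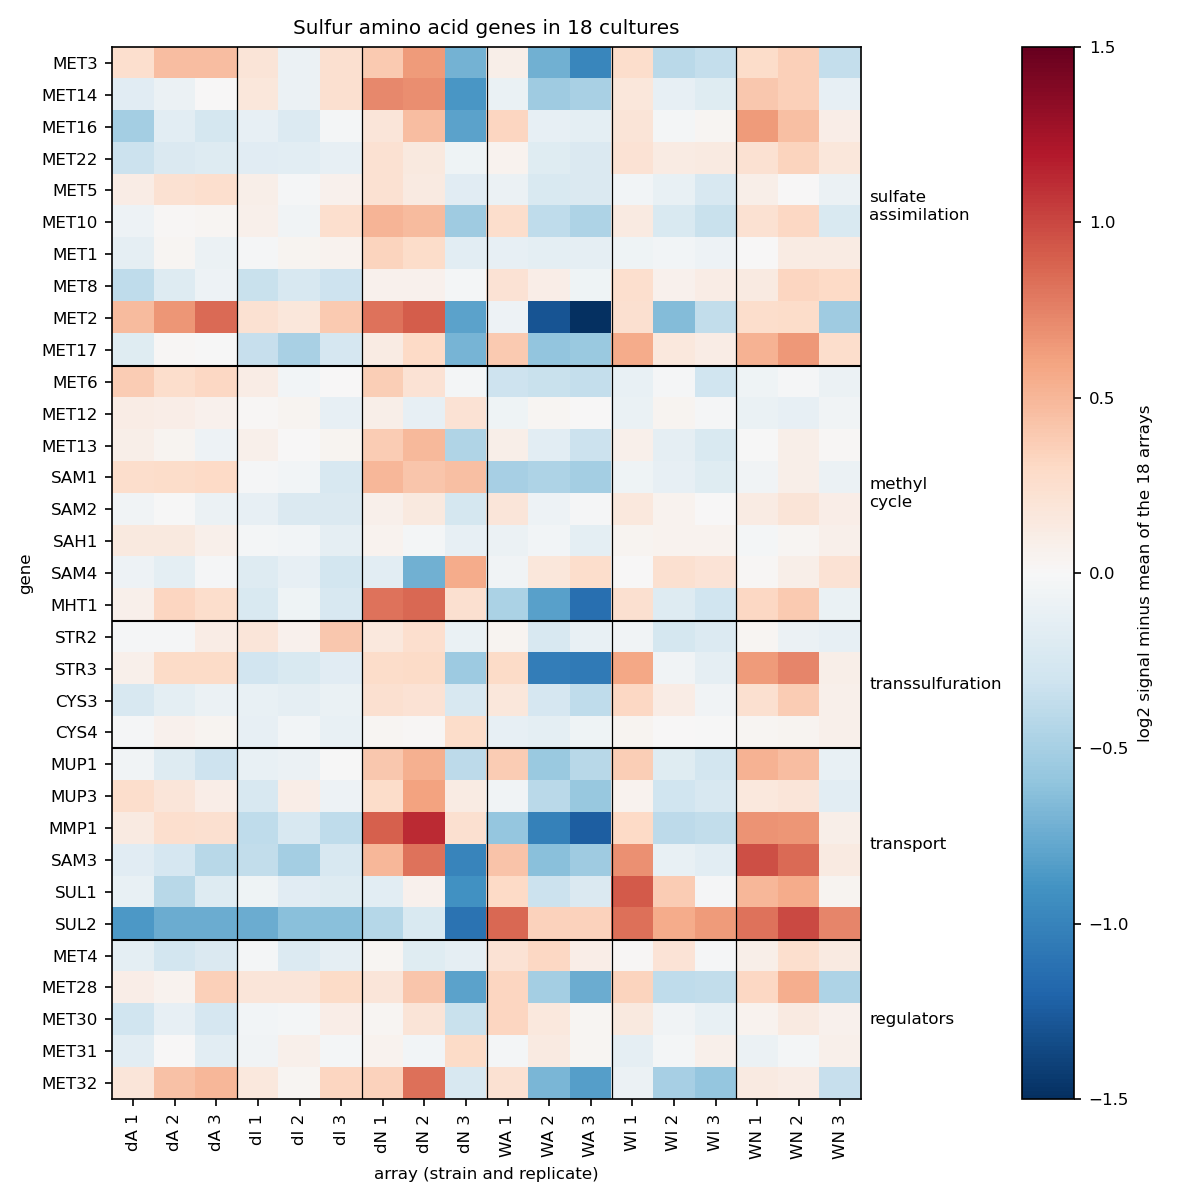
The log2 signal of each of the 33 genes (rows, by step) in each of the 18 arrays (columns, by strain and replicate), as the difference from the mean of the gene over the 18 arrays. SUL2 is low in all 9 deletion arrays, SAM1 is low in the 3 WA arrays and high in the 3 dN arrays, and dN 3 is blue in most assimilation and transport rows where dN 1 and dN 2 are red.

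Deletion of HAC1 went with the most calls among these genes when α-amylase was made, and SUL2 was called lower with all 3 vectors. In dA against WA, 9 of 33 rose and 4 fell (adjusted p under 0.05 over all genes, limma), where 9.6% of all genes rose and 13.6% fell, so that the 27.3% that rose lies above the background and the 12.1% that fell near it. In dI against WI, 1 rose and 3 fell, where 9.47% of all genes rose and 10.8% fell (20.2% in either direction). In dN against WN, 1 rose and 2 fell, where 9.49% of all genes rose and 12% fell (21.5% in either direction). The median log2 fold change of the 33 genes was 0.14 in dA against WA, -0.04 in dI against WI and -0.03 in dN against WN, against 0.01, 0.04 and 0.03 over all genes. Without dN 3, which also enters the shared variance, 16 of the 33 were called in dA against WA, 8 in dI against WI and 8 in dN against WN, where 33.6%, 30% and 21% of all genes were. The difference between the 3 counts was not tested.

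**Figure D2:**
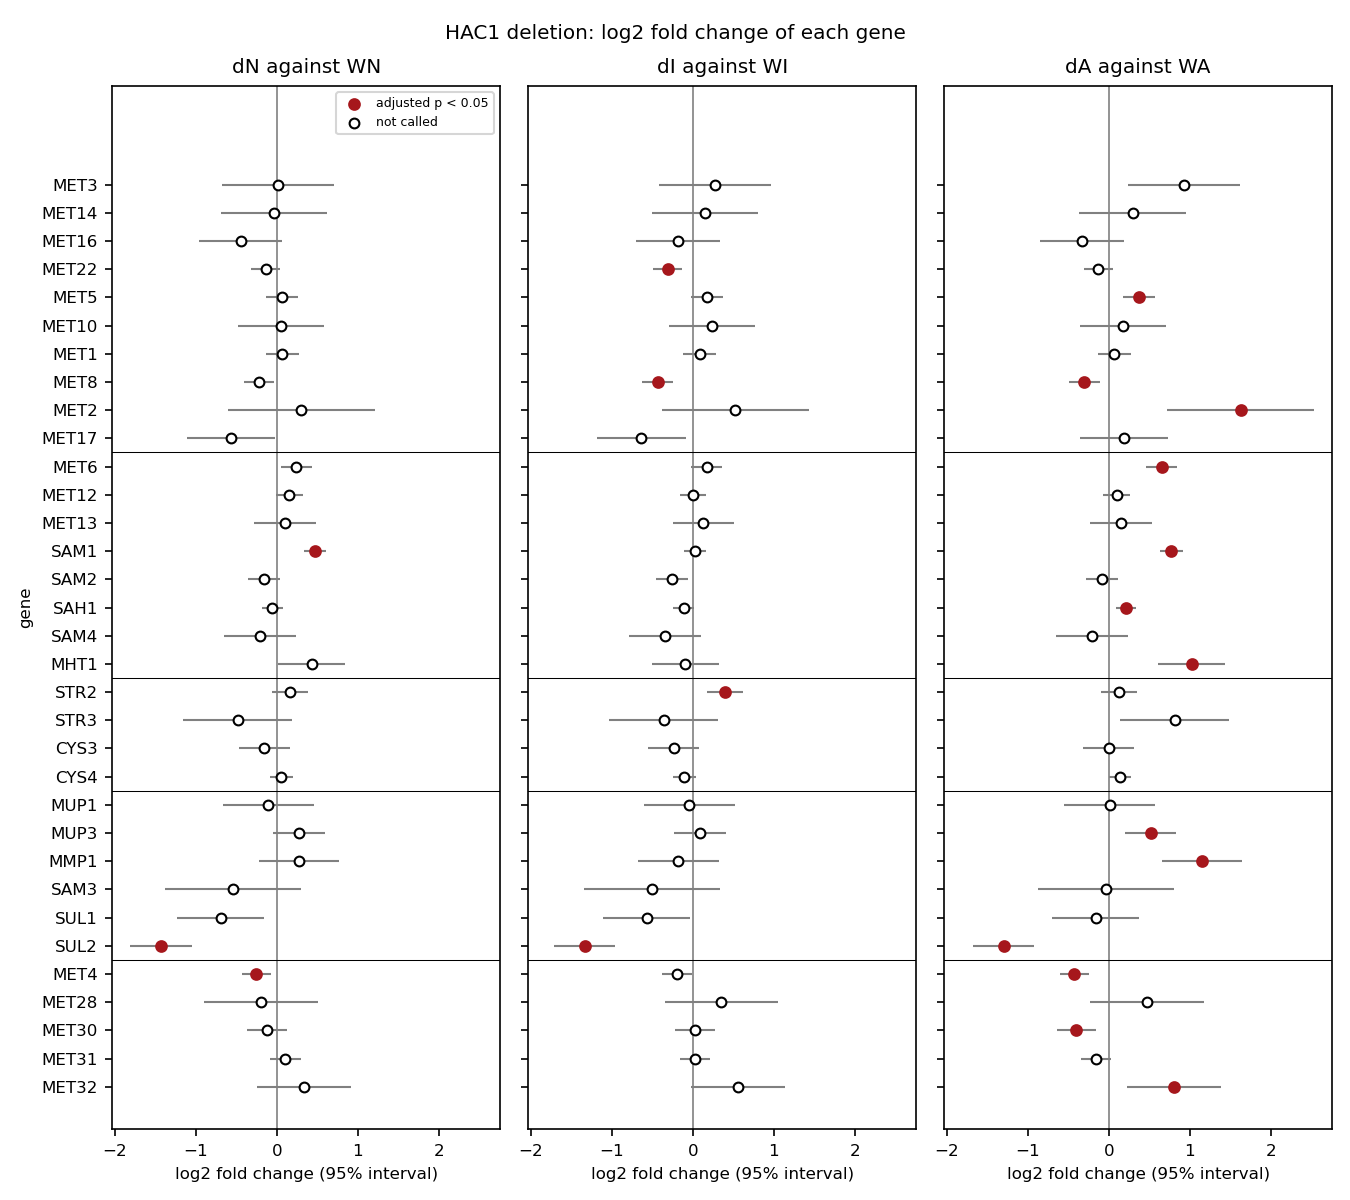
Log2 fold change of each of the 33 genes (rows) for the deletion over the wild type with the same vector, with limma's 95% interval, in 3 panels. Filled points passed an adjusted p of 0.05: 3 in dN against WN, 4 in dI against WI and 13 in dA against WA, with SUL2 near -1.43, -1.34 and -1.30 in the 3 panels.

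Counting arrays that do not overlap gave a different weight to dI. In dI against WI, 13 of 33 genes lay lower in all 3 dI arrays than in all 3 WI arrays (39.4%, where 18.8% of all genes did) and 4 lay higher (12.1% against 27.2% of all genes). The 13 include SUL1, which was at background in all arrays. In dA against WA, 11 lay higher (33.3% against 21.8%) and 5 lower (15.2% against 23.9%). In dN against WN, where dN 3 widens the dN range, 1 lay higher and 3 lower, and 30.8% of all genes did not overlap in either direction. These shares are descriptions with no test of their own.

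Production of α-amylase in the wild type went with lower signals of 4 of these genes, and no call was made for IP. In WA against WN, 28 of the 33 fold changes were negative with a median of -0.36, against 0.00 over all genes, and 4 genes passed the test, all lower (12.1%, where 1.54% of all genes fell). In WI against WN, 29 of 33 were negative with a median of -0.13, against -0.02 over all genes. None passed limma's adjusted test, where 0.294% of all genes did. At an unadjusted p under 0.05, 1 of the 33 was lower, where 165 of all 5449 genes were. Without dN 3, 10 of the 33 fell in WA against WN (3.8% of all genes) and none in WI against WN. A same-signed count over genes that vary together is not a count of independent cases, and both comparisons share the WN arrays.

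In the deletion background, 4 of 33 fell in dI against dN and none rose, where 5.78% of all genes fell, and 1 fell in dA against dN, where 5.85% of all genes fell. Leaving out dN 3 raised these counts to 12 in dI against dN (36.4%, where 7.93% of all genes then fell) and 11 in dA against dN (33.3%, where 13.7% then fell), again all lower. The genes that this added were MET14, MET22, MET1, MET6, MET13, SAM2, MUP3 and SAM3 in dI against dN, and MET14, MET16, MET1, MET8, MET13, MHT1, MMP1, SAM3, SUL2 and MET30 in dA against dN. The median log2 fold change moved with it, to -0.35 in dI against dN from 17 arrays (-0.10 from 18) and -0.21 in dA against dN (-0.12 from 18). In dA against dI, SAM1 alone passed, where 0.991% of all genes did, and in WA against WI SAM1 alone passed, where 0.496% of all genes did. Without dN 3, 3 of the 33 rose in dA against dI (9.09%, where 2.35% of all genes rose). In WA against WI 2 then fell (6.06%, where 0.294% of all genes fell). Same-numbered arrays deviated together in both of these pairs of strains, weakly between dA and dI (r of 0.116 to 0.356). A block by replicate number was added after these deviations were seen. Its calls therefore describe these arrays and are no separate support. With the replicate number as a block in a fit of only the 2 strains, 7 of the 33 rose in dA against dI (MET2, MET17, MET6, SAM1, MHT1, STR3 and MMP1), where 4.94% of all genes rose, and 3 fell in WA against WI (SAM1, MHT1 and MMP1), where 0.606% of all genes fell.

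**Figure D3:**
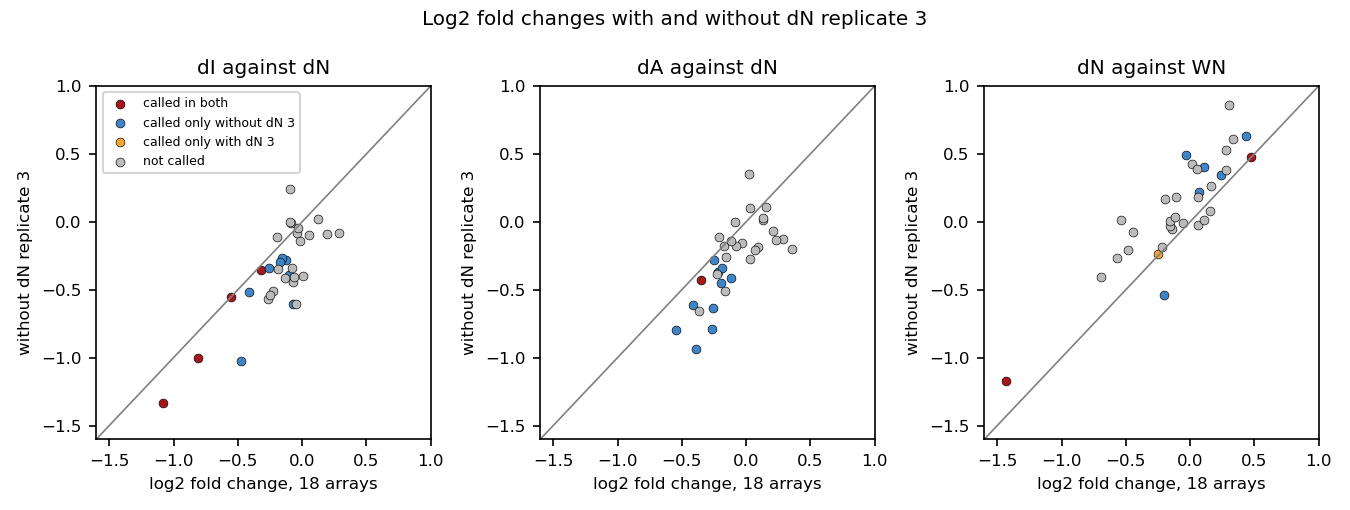
Log2 fold change of each of the 33 genes from all 18 arrays (x axis) and without dN replicate 3 (y axis) in the 3 comparisons that use dN, with the line of equality. Points lie mostly below the line for dI and dA against dN and above it for dN against WN; 4 genes are called with 18 arrays and 12 without dN 3 in dI against dN, 1 and 11 in dA against dN, and 3 and 8 in dN against WN.

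Among the transport genes, SUL2, a high-affinity sulfate permease, was the one that fell in the deletion with all 3 vectors. It read 5.33, 5.45 and 5.44 in dA, against 7.05, 6.53 and 6.54 in WA. It read 5.45, 5.56 and 5.56 in dI, against 7.01, 6.75 and 6.83 in WI. It read 5.76, 5.96 and 5.08 in dN, against 7.00, 7.18 and 6.92 in WN. No deletion array reached any wild-type array: the highest deletion value was 5.96 and the lowest wild-type value 6.53. The log2 fold change was -1.30 ± 0.18 in dA against WA (SE, n = 3 each, limma adjusted p = 8.31e-05), or 2.46-fold lower. It was -1.34 ± 0.18 in dI against WI (adjusted p = 5.63e-05) and -1.43 ± 0.18 in dN against WN (adjusted p = 3.04e-05), or -1.17 (adjusted p = 9.24e-06) without dN 3. The call stood in each of the 18 fits that left out 1 array.

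The size of the SUL2 decrease was not shown to depend on the protein made. The effect of α-amylase on SUL2 differed between the backgrounds by 0.13 (95% interval -0.41 to 0.67) and that of IP by 0.09 (-0.45 to 0.64), and both intervals reach well to either side of 0. Production of α-amylase or IP by itself gave SUL2 log2 fold changes of -0.32 in WA against WN and -0.17 in WI against WN, neither of which passed (adjusted p = 0.386 and 0.987, limma). Its paralogue SUL1 was at background in all arrays (1.62 to 3.45), and no fold change is read from it.

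**Figure D4:**
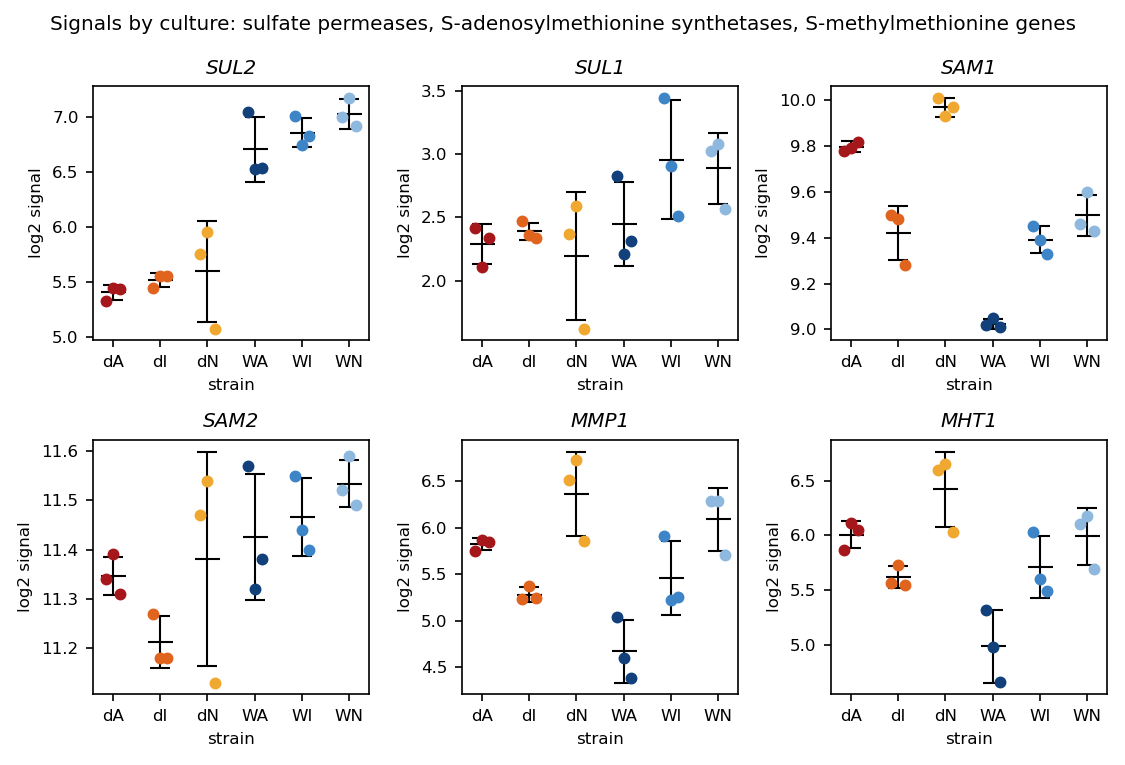
Log2 signal of SUL2, SUL1, SAM1, SAM2, MMP1 and MHT1 in each culture, with the strains dA, dI, dN, WA, WI and WN from left to right; points are single arrays, and the bars are the mean and SD of 3. The y axes differ between panels and do not start at 0. SUL2 separates the deletion strains (5.08 to 5.96) from the wild type (6.53 to 7.18), whereas SAM1 is lowest in WA (9.01 to 9.05) and highest in dN (9.93 to 10.01).

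The 2 methionine permeases moved less. MUP1, the high-affinity permease, was not called in any comparison, and its arrays ranged between 8.38 and 9.47. MUP3, a low-affinity permease, read 6.42, 6.33 and 6.25 in dA, against 6.10, 5.75 and 5.59 in WA, all dA arrays above all WA arrays, and rose by 0.52 ± 0.15 (adjusted p = 0.0198, limma), a call lost without WA 2 (0.48), WA 3 (0.41), dA 1 (0.47) or dA 2 (0.52). SAM3, the S-adenosylmethionine permease, was not called from 18 arrays. Without dN 3 it fell by 1.03 in dI against dN (adjusted p = 0.031) and by 0.94 in dA against dN (adjusted p = 0.0356), where the fold changes from 18 arrays were -0.48 and -0.39.

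MMP1 and MHT1, which lie next to each other in the genome, encode the permease for S-methylmethionine and the enzyme that uses it to methylate homocysteine. Both were lowest in WA. MMP1 read 5.75, 5.87 and 5.85 in dA, 5.04, 4.60 and 4.38 in WA, and 6.29, 6.28 and 5.70 in WN. It was 1.15 ± 0.23 higher in dA than in WA (adjusted p = 0.00208, limma) and 1.42 ± 0.23 below WN in WA (log2 fold change -1.42, adjusted p = 0.00198), with no overlap of arrays in either comparison. MHT1 read 5.87, 6.11 and 6.05 in dA, 5.32, 4.98 and 4.66 in WA, and 6.10, 6.18 and 5.69 in WN. Its log2 fold change was 1.02 ± 0.19 in dA against WA (adjusted p = 0.00125) and -1.01 ± 0.19 in WA against WN (adjusted p = 0.007). The 3 arrays of dA and of WN overlapped for both genes.

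Both genes also fell with IP production in the deletion. MMP1 read 5.23, 5.37 and 5.24 in dI, against 6.51, 6.73 and 5.86 in dN, a log2 fold change of -1.08 ± 0.23 (adjusted p = 0.0066, limma). MHT1 read 5.56, 5.73 and 5.55 in dI, against 6.60, 6.65 and 6.03 in dN, a log2 fold change of -0.81 ± 0.19 (adjusted p = 0.0129). The dI arrays lay below all dN arrays for both genes. The call of MHT1 was lost without dN 1 (-0.72) or without dI 3 (-0.78), and in a fit of only the dI and dN arrays neither gene passed. Whether IP acted on them differently in the 2 backgrounds was not shown: the differences were -0.46 (95% interval -1.16 to 0.25) for MMP1 and -0.53 (-1.11 to 0.06) for MHT1.

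In the methyl cycle, SAM1, which encodes an S-adenosylmethionine synthetase, was called in more comparisons than any other of the 33 genes. It read 9.78, 9.79 and 9.82 in dA, 9.50, 9.48 and 9.28 in dI, and 10.01, 9.93 and 9.97 in dN. It read 9.02, 9.05 and 9.01 in WA, 9.45, 9.39 and 9.33 in WI, and 9.46, 9.60 and 9.43 in WN. Within a background the arrays of the α-amylase strain did not overlap those of the empty vector strain, and the order of strain means was dN, dA, WN, dI, WI and WA. The neighbours WN, dI and WI in that order overlapped, and dI and WI differed by 0.03 ± 0.07 (adjusted p = 0.82, limma, 95% interval -0.11 to 0.17).

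The SAM1 log2 fold change for the deletion was 0.77 ± 0.07 in dA against WA (adjusted p = 5.12e-07, limma) and 0.47 ± 0.07 in dN against WN (adjusted p = 8.61e-05). For production it was -0.47 ± 0.07 in WA against WN (adjusted p = 0.000431) and -0.55 ± 0.07 in dI against dN (adjusted p = 5.85e-05). It was -0.17 ± 0.07 in dA against dN (adjusted p = 0.104) and -0.11 ± 0.07 in WI against WN (adjusted p = 0.952), and did not pass in these. Between the 2 producing strains, SAM1 was 0.38 higher in dA than in dI (adjusted p = 0.0101) and 0.37 lower in WA than in WI (log2 fold change -0.37, adjusted p = 0.0144). The call in dA against dI was lost without dI 3 (0.31), dA 2 (0.38) or dA 3 (0.36), and that in WA against WI without WA 2 (-0.38), WA 3 (-0.36), WI 1 (-0.34) or WI 2 (-0.37). The effect of IP on SAM1 was 0.44 lower in the deletion than in the wild type (difference -0.44 ± 0.09, adjusted p = 0.0465, limma interaction), the only interaction called among the 33 genes for IP, where 0.716% of all genes were called. None of the 33 was called for α-amylase by limma, where 1.34% of all genes were called. At an unadjusted p under 0.05, 8 of the 33 passed, all higher, where 339 of all 5449 genes were higher and 374 lower. The SAM1 interaction passed without dN 3 (-0.45, adjusted p = 0.0329), but its call was lost in 14 of the 18 fits that left out 1 array, with the replicate block (adjusted p = 0.107), with all probe sets (0.111) and in a fit of only the 4 strains (0.177).

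Its paralogue SAM2 did not follow it. SAM2 read 11.34, 11.39 and 11.31 in dA, against 11.57, 11.32 and 11.38 in WA, and the groups overlapped. Its log2 fold change was -0.08 ± 0.09 in dA against WA (adjusted p = 0.587, limma) and -0.15 ± 0.09 in dN against WN (adjusted p = 0.251). In dI against WI it was -0.25 ± 0.09, with all dI arrays (11.18 to 11.27) below all WI arrays (11.40 to 11.55), and passed only without dN 3 (adjusted p = 0.0675 from 18 arrays and 0.00988 from 17). The difference between SAM1 and SAM2 was not itself tested.

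MET6, the methionine synthase, and SAH1, the S-adenosylhomocysteine hydrolase, were higher in dA than in WA. MET6 read 10.44, 10.32 and 10.37 in dA, against 9.74, 9.72 and 9.70 in WA, and rose by 0.66 ± 0.09 (adjusted p = 7.49e-05, limma). SAH1 read 11.80, 11.80 and 11.73 in dA, against 11.57, 11.61 and 11.50 in WA, and rose by 0.22 ± 0.06 (adjusted p = 0.0144). Neither pair of groups overlapped. The calls of SAH1 were lost without WA 3 (0.19) or without dA 2 (0.21). MET12 and MET13, which encode methylenetetrahydrofolate reductases that supply the methyl group, were not called in any comparison from 18 arrays. MET13 was called without dN 3, by 0.40 in dN against WN, -0.40 in dI against dN and -0.42 in dA against dN (adjusted p = 0.0129, 0.0183 and 0.00966).

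SAM4, the homocysteine methyltransferase that uses S-adenosylmethionine and lies next to SAM3, was not called from 18 arrays. It ran opposite to its neighbour in the dN arrays, with SAM4 at 6.88, 6.32 and 7.60 and SAM3 at 7.79, 8.11 and 6.30. Without dN 3, SAM4 fell by 0.54 in dN against WN (adjusted p = 0.00879) and by 0.34 in dI against WI (adjusted p = 0.0398).

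Of the 10 assimilation genes, none was called in dN against WN by limma. At an unadjusted p under 0.05, 2 of the 10 passed, both lower, where 899 of all 5449 genes were lower. In dI against WI 2 of 10 fell, where 10.8% of all genes did. In dA against WA 2 of 10 rose and 1 fell, where 9.6% of all genes rose and 13.6% fell. MET2, the homoserine O-acetyltransferase that makes the carbon acceptor for sulfide, read 5.80, 5.98 and 6.17 in dA, against 5.25, 4.03 and 3.77 in WA. All dA arrays lay above all WA arrays, of which WA 1 alone was above background. Its log2 fold change was 1.63 ± 0.43 (adjusted p = 0.0112, limma), and since 2 of the 3 WA arrays gave only a background reading, its size is not settled. The call was lost without WA 3 (1.34), and the value was 2.08 without WA 1. MET5, a subunit of sulfite reductase, read 7.09, 7.20 and 7.23 in dA, against 6.89, 6.75 and 6.76 in WA, and rose by 0.38 ± 0.09 (adjusted p = 0.00789). For MET10, the other subunit, the arrays overlapped and the log2 fold change was 0.18 ± 0.25 (adjusted p = 0.652).

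MET8, which acts in the synthesis of siroheme, the cofactor of sulfite reductase, was called lower in dI and dA but not in dN. Its mean was 6.88 in dN and 7.10 in WN. It read 6.52, 6.61 and 6.54 in dI, against 7.10, 6.92 and 6.96 in WI, and its log2 fold change was -0.43 ± 0.09 (adjusted p = 0.00263, limma). It read 6.47, 6.66 and 6.77 in dA, against 7.07, 6.95 and 6.79 in WA, with a log2 fold change of -0.30 ± 0.09 (adjusted p = 0.0213). The gap between dA 3 and WA 3 was narrow, and the call in dA against WA was lost without WA 1 (-0.23), WA 2 (-0.29) or dA 1 (-0.22). MET8 also fell in dI against dN, where dN read 6.91, 6.92 and 6.82 (log2 fold change -0.32 ± 0.09, adjusted p = 0.027). That call was lost without dN 1 (-0.31), dI 1 (-0.31) or dI 3 (-0.31). MET1, the other siroheme gene, had log2 fold changes of 0.09 in dI against WI and 0.07 in dA against WA, neither called (adjusted p = 0.596 and 0.663).

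MET22, which encodes the phosphatase that removes 3'-phosphoadenosine 5'-phosphate, the by-product of sulfate reduction, was lower wherever it was called. It read 8.30, 8.41 and 8.43 in dA, 8.45, 8.46 and 8.50 in dI, and 8.85, 8.77 and 8.56 in dN. It read 8.67, 8.44 and 8.40 in WA, 8.84, 8.74 and 8.76 in WI, and 8.85, 8.96 and 8.79 in WN. All dA arrays lay below all dN arrays, all dI below all WI and all WA below all WN. The log2 fold changes were -0.35 ± 0.08 in dA against dN (adjusted p = 0.0147, limma), -0.31 ± 0.08 in dI against WI (adjusted p = 0.0165) and -0.36 ± 0.08 in WA against WN (adjusted p = 0.0231). Each of these calls was lost when 1 of certain arrays was left out: dN 1 (-0.29) or dA 1 (-0.31) for dA against dN, WI 1 (-0.28) or dI 1 (-0.30) for dI against WI, and WN 1 (-0.37), WN 2 (-0.31), WA 2 (-0.33) or WA 3 (-0.31) for WA against WN.

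The genes that activate sulfate (MET3 and MET14), MET16 and MET17 were not called from 18 arrays. MET3 (ATP sulfurylase) came nearest, at 6.92, 7.13 and 7.13 in dA, against 6.76, 5.95 and 5.69 in WA, a log2 fold change of 0.93 ± 0.33 (adjusted p = 0.0506, limma), which passed without dN 3 (adjusted p = 0.0086). MET14 (adenylylsulfate kinase) read 8.74, 8.72 and 7.14 in dN, against 8.42, 8.38 and 7.90 in WN: dN 3 was the lowest of all 18 arrays and the other dN arrays the highest. Its log2 fold change was -0.03 in dN against WN from 18 arrays and 0.50 (adjusted p = 0.0397) without dN 3. In dA against dN it was -0.26 from 18 arrays and -0.79 (adjusted p = 0.00221) without dN 3, and in dI against dN -0.07 and -0.60 (adjusted p = 0.0184). MET16 (PAPS reductase) was called in dA against dN without dN 3 (-0.64, adjusted p = 0.00988; -0.26 from 18 arrays). MET17, the sulfhydrylase that joins sulfide to O-acetylhomoserine, had log2 fold changes of -0.64 in dI against WI and -0.57 in dN against WN, called only in dI against WI without dN 3 (adjusted p = 0.0267, and 0.0976 from 18 arrays).

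In transsulfuration, STR2, which makes cystathionine from cysteine, was the one gene called from 18 arrays. It read 7.17, 7.05 and 7.39 in dI, against 6.93, 6.72 and 6.78 in WI, with no overlap, and rose by 0.39 ± 0.10 (adjusted p = 0.0152, limma). The call was lost without WI 2 (0.35), WI 3 (0.38) or dI 3 (0.30). STR3, which cleaves cystathionine towards homocysteine, read 6.58, 6.79 and 6.79 in dA, 6.79, 5.47 and 5.45 in WA, and 7.15, 7.24 and 6.59 in WN. WA 1 lay within the dA and WN ranges while WA 2 and WA 3 lay below every other array of the series. Its log2 fold changes of 0.81 ± 0.32 in dA against WA and -1.09 ± 0.32 in WA against WN did not pass (adjusted p = 0.0766 and 0.067) and passed without dN 3 (adjusted p = 0.0357 and 0.0225). CYS3 and CYS4, which make cysteine from homocysteine, had log2 fold changes between -0.24 and 0.14 in the 3 deletion comparisons, none of them called from 18 arrays.

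Among the regulators, MET4, the transcriptional activator of the pathway, was lower in the deletion. It read 7.82, 7.69 and 7.75 in dA, against 8.18, 8.28 and 8.07 in WA, with no overlap, and its log2 fold change was -0.42 ± 0.08 (adjusted p = 0.00185, limma). In dN against WN it was -0.25 ± 0.08 (adjusted p = 0.0444, and 0.0894 without dN 3), and in dI against WI -0.20 ± 0.08 (adjusted p = 0.125). The call in dN against WN was lost in 10 of the 18 fits that left out 1 array, at values of -0.29 to -0.21. MET30, the F-box protein that restrains Met4p, read 7.14, 7.31 and 7.19 in dA, against 7.76, 7.60 and 7.46 in WA, and fell by 0.40 ± 0.12 (adjusted p = 0.0194). That call was lost without WA 1 (-0.32), dA 1 (-0.36) or dA 3 (-0.39).

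MET32, a zinc-finger partner of Met4p, read 4.63, 4.89 and 4.95 in dA, against 4.68, 3.76 and 3.62 in WA, near background and with overlapping arrays, and rose by 0.80 ± 0.27 (adjusted p = 0.0432, limma). Its call was lost in 13 of the 18 fits without 1 array, at values of 0.60 to 0.90. For its paralogue MET31 the value was -0.16 ± 0.09 in dA against WA (adjusted p = 0.225). MET28, another partner of Met4p, was not called in any comparison.

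Cultures of 1 strain differed more in the assimilation and transport genes, by their medians, than in most genes. The median within-strain SD of the 10 assimilation genes was 0.332, and that of the 6 transport genes 0.328, against 0.126 over all 5449 genes. Without dN 3 the medians were 0.198 and 0.279, against 0.105. The median SD of the methyl cycle genes was below that of all genes (0.111, or 0.078 without dN 3). It was 0.163 in transsulfuration and 0.146 among the regulators (0.141 and 0.107 without dN 3). Of the assimilation genes, MET22, MET5, MET1 and MET8 had SDs of 0.10 to 0.12, also below the median of all genes. Of the 33 genes, 14 belonged to the 10% of all genes with the highest within-strain SD, and 12 did without dN 3. The spread was not equal among strains: the median range of the assimilation genes over the 3 arrays was 1.02 in dN, 0.46 in WA, 0.45 in WN, 0.28 in WI, 0.20 in dI and 0.19 in dA, where all genes had 0.34, 0.21, 0.17, 0.16, 0.16 and 0.15 in the same order of strains.

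**Figure D5:**
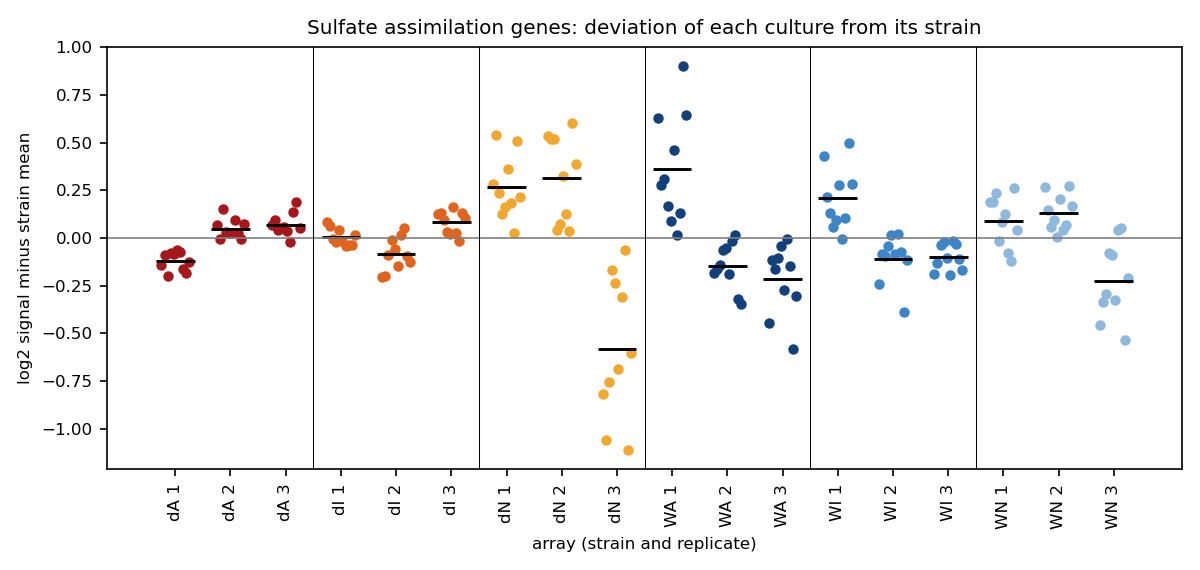
Log2 signal of each of the 10 assimilation genes minus the mean of its strain (points), by array, with the mean of the 10 as a bar. In dN 1, dN 2, WA 1 and WN 2 all 10 genes lie above their strain mean, and in dA 1, dN 3, WA 3 and WI 3 all 10 lie below it, with bars from -0.58 in dN 3 to 0.36 in WA 1.

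Within a strain, the assimilation genes deviated together. The mean deviation of the 10 genes was 0.36, -0.15 and -0.22 in WA 1 to 3, 0.26, 0.32 and -0.58 in dN 1 to 3, and 0.09, 0.13 and -0.22 in WN 1 to 3. In WA 1, WN 2, dN 1 and dN 2 all 10 genes lay above the strain mean, and in WA 3, WI 3, dN 3 and dA 1 all 10 lay below. The median Pearson correlation of these deviations over the 45 pairs of assimilation genes was 0.856 (18 arrays, of which 12 deviations are free), and that over the 15 pairs of transport genes 0.884, against 0.014 over all pairs of genes. Without dN 3 the medians were 0.744, 0.834 and 0.019. These correlations are descriptions, since the genes share the same 18 RNA samples and arrays.

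The genes outside assimilation divided into those that varied with it and those that did not. The deviations of 22 of the 33 genes correlated above 0.8 with the mean of the assimilation genes (66.7%, against 14.0% of all genes), or 17 without dN 3 (51.5% against 5.1%). For a gene of the 10, the mean was taken over the other assimilation genes. Of the 23 genes outside assimilation, 14 passed 0.8. SUL2, SAM3, CYS3, MET28, MET32 and SAM2 were among those with r above 0.9 (0.80 to 0.96 without dN 3). SAM1 (r = 0.14, and 0.19 without dN 3) and MET4 (0.08 and -0.04) varied little with it. SAH1 (0.30 and -0.23) and MET6 (0.58 and 0.13) stood lower without dN 3. MET31 (-0.75 and -0.55), MET12 (-0.78 and -0.60) and SAM4 (-0.86 and -0.63) ran the other way in both, whereas the r of CYS4 was -0.70 with dN 3 and -0.11 without it. Among the assimilation genes themselves, the r of MET1 was 0.67 with dN 3 and 0.02 without it. The 13 genes called in dA against WA lay across this range, here from 18 arrays. MET2 (0.97), SUL2 (0.95), MET32 (0.93), MET5, MMP1 and MET30 (0.90 each) and MHT1 (0.89) were high. MUP3 (0.72), MET6, MET8 (0.49), SAH1, SAM1 and MET4 were lower.

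Array dN 3 held the lowest part of this spread. It lay below both other dN arrays in 27 of the 33 genes (81.8%), including all 10 assimilation and all 6 transport genes (SUL1 among them, at background), where 43.5% of all genes did. The median of dN 3 minus the mean of dN 1 and dN 2 was -0.97 over the assimilation genes, -0.82 over the transport genes and -0.47 over the 33, against 0.00 over all genes. MET2 (-1.67), SAM3 (-1.65) and MET14 (-1.59) were lowest, and SAM4 (1.00) was highest. The mean deviation of the assimilation genes from their strain was also negative in WN 3 (-0.22), WI 3 (-0.10) and WA 3 (-0.22). It was positive in dI 3 (0.08) and dA 3 (0.07). The part of culture, RNA and array in the position of dN 3 cannot be told apart from 1 array per culture.

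Around the 33 genes, 37 further genes of sulfur and methionine metabolism were examined from a list: homoserine and one-carbon supply, methionine salvage and polyamines, glutathione and cysteine uptake, other sulfur sources, partners of Met4p and methionine sulfoxide reductases. In dA against WA 10 of these rose (27%, where 9.6% of all genes did) and 4 fell (10.8%, where 13.6% did). In dI against WI 5 rose (13.5%, where 9.47% did) and 3 fell (8.11%, where 10.8% did), and in dN against WN 5 rose (13.5%, where 9.49% did) and 4 fell (10.8%, where 12% did), shares near those of all genes. Those called with an absolute log2 fold change of at least 0.58 were few. BDS1, a sulfatase that frees sulfate from alkyl and aryl sulfates, fell in all 3 deletion comparisons, with log2 fold changes of -0.76 in dA against WA, -0.80 in dI against WI and -0.83 in dN against WN (adjusted p = 0.00158, 0.0012 and 0.000875, limma). MDE1, an enzyme of methionine salvage, fell by 0.69 in dA against WA and by 0.66 in dI against WI (adjusted p = 2.03e-06 and 2.46e-06). HOM2 and HOM3 act in the synthesis of homoserine, the precursor of O-acetylhomoserine. They fell by 0.60 and 0.81 in dI against dN (adjusted p = 0.000237 and 0.00314, limma). HOM2 rose by 0.62 in dN against WN (adjusted p = 6.26e-05). These values depend on dN 3. Without it, the lowest log2 fold change of the 7 homoserine and one-carbon genes in dI against dN was -0.58. Of these genes, 2 were still called lower there, and the decrease of HOM3 was smaller. In dN against WN the highest value was then 0.56, with 1 gene called higher, so the rise of HOM2 lay below 0.58.

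Other amino acid pathways moved in dN where assimilation did not pass. In dN against WN, 6 of 8 genes of arginine synthesis, 6 of 8 of lysine synthesis and 4 of 7 of histidine synthesis rose, with median log2 fold changes of 0.57, 0.54 and 0.46, and none fell, where 9.49% of all genes rose. None of the 10 assimilation genes was called there (median -0.01), or 2 rose (median 0.20) without dN 3, where 10.1% of all genes then rose. In dA against dN, 7 of 8 lysine genes, 5 of 8 arginine genes and 1 of 7 histidine genes fell, against 1 of 10 assimilation genes, where 5.85% of all genes fell. Without dN 3, 5 of 10 assimilation genes fell, where 13.7% of all genes did. The differences between these lists were not tested.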

How the data were processed

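Total RNA of 18 cultures was hybridised to Affymetrix Yeast Genome 2.0 arrays, 1 per culture. The values are log2 signals deposited by the authors, who made them with RMA background correction on perfect-match probes, qspline normalization and median polish in R 2.10.1. Scaling between arrays removes any change in total mRNA. The number of arrays limits the precision.

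Strains came from titles and strain labels. The dN array whose title has no number is called replicate 1, which is only a name. The label of WN replicate 1 describes a different cell lysis.

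Of 10928 probe sets, 5498 matched S. cerevisiae genes through the platform annotation and RefSeq names (R64), which gave 5449 genes. Background is the 95th percentile of the 5430 other probe sets. Strain means were fitted jointly in limma 3.58.1 (R 4.3.3), which left 12 residual degrees of freedom. Adjustment was by Benjamini-Hochberg across the 5449 genes, with a threshold of 0.05. Interactions were (dI-dN)-(WI-WN) and (dA-dN)-(WA-WN). Since dN spreads most, shared standard errors tend to be too small against dN.

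Per comparison, up to 8 called members with the highest absolute fold change get full values, then members of the same step or paralogue pair, and further members were named after their values were seen. Members and lists were chosen with earlier results of these data known. Alternatives were fits restricted to the strains compared, a replicate block, all probe sets, dropping dim genes, quantile normalization, median centring, an intensity trend and leaving out each array. Same-numbered arrays deviated together, each of the 3 pairs with r above 0.1, between WA and WI (0.402 to 0.675) and between dA and dI (0.116 to 0.356). WN and dN share only 2 numbers (0.458 and 0.62), and no other strains paired by each number they share. The number 3 arrays of WN, WI, WA and dN still deviated together (0.425 to 0.62). So did number 1 of WN with WI (0.416) and WA (0.365), while number 2 of WN ran against both (-0.282 and -0.368). The numbers come from the titles. A block within these pairs of strains was added after the data were seen. Promoter motifs were not searched.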

Additional observations from a re-analysis of the deposited data

Results flagged for a closer look

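One result of these genes differed between the 2 backgrounds by a test of the difference itself. IP production went with a SAM1 log2 fold change of -0.55 in the deletion (dI against dN) and -0.11 in the wild type (WI against WN), and the difference was -0.44 ± 0.09 (SE, adjusted p = 0.0465 over all genes, limma interaction). All 3 dI arrays lay below all 3 dN arrays, while the WI and WN arrays overlapped. The call was lost in 14 of the 18 fits that left out 1 array, with differences of -0.48 to -0.38, and held without dN replicate 3 (-0.45, adjusted p = 0.0329).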

How the results depend on the processing

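No called value of these genes changed sign under any alternative run. Of 32 calls of a gene in a comparison, a fit of only the strains compared lost 10, all probe sets lost 6 and the replicate block lost 3, and quantile normalization, median centring and an intensity trend lost none. Leaving out dim genes lost none of the 31 calls it could test, since it removed MET32 from the fit. The fit of only the strains compared called 0 genes in WA against WI, 6 in dA against dI, 0 in dA against dN, 8 in dI against WI, 0 in dI against dN and 0 in the IP interaction, with fewer arrays in the fit. Quantile normalization called 2 in dA against dN, and all probe sets called 0 in the IP interaction. The share of all genes called in these fits was not counted, so these counts are not read as results about these genes.

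Replicate numbers paired WA with WI and dA with dI by the correlation of deviations at all 3 numbers, and no other strains that share 3 numbers. Over all 40 pairs of same-numbered arrays it ran between -0.564 and 0.675, and 17 exceeded 0.1. The number 3 arrays of WN, WI, WA and dN also deviated together (0.425 to 0.62). With the number as a block in a fit of only the 2 strains, 3 genes were called in WA against WI and 7 in dA against dI, each with SAM1 among them. These pairs of strains were picked from the deviations of the same arrays, so these calls are descriptions. With the replicate number as a block over all strains, 0 genes were called in dA against dN and 0 in the IP interaction, and the other counts stayed within 1.5 times.

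Leaving out 1 array at a time gave 2 to 8 called genes in dN against WN, 3 to 8 in dI against WI, 9 to 16 in dA against WA, 0 to 0 in WI against WN, 3 to 10 in WA against WN, 2 to 12 in dI against dN, 0 to 11 in dA against dN, 0 to 2 in WA against WI, 0 to 3 in dA against dI, 0 to 1 in the IP interaction and 0 to 1 in the α-amylase interaction. In each pair of strains with any call, the highest count came without dN replicate 3. Without dN replicate 2, 6 genes were called in dN against WN, and without WA replicate 1, 7 in WA against WN. The share of all genes called also moves with the array left out, from 20.2% to 30% in dI against WI without dN replicate 3. For the other arrays it was not counted, so these ranges are not results about these genes alone. The cause was not tested. The standard errors of the 10 assimilation genes in dA against WA lay between 0.08 (MET22) and 0.43 (MET2) on the log2 scale. SUL1, at background in all arrays, could not be compared.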

Other observations

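The genes outside the list whose deviations within strains ran most like the mean of the assimilation genes were chosen after their values were seen. They included CWP1 (r = 0.98), a cell wall mannoprotein gene, SLT2 (0.97), the kinase of the cell wall integrity pathway, KDX1 (0.98), a kinase-like target of that pathway, and MXR1 (0.98), a methionine sulfoxide reductase. TRS65, YLR225C, MSB3 and RTC3 (0.98 each) ranked as high, and 14.0% of all genes had r above 0.8. Without dN 3 the r was 0.96 for CWP1, SLT2 and MXR1 and 0.97 for KDX1. Those that ran the other way included LEU9 (-0.98), of leucine synthesis, MIS1 (-0.98), the mitochondrial one-carbon enzyme, and FCY2 (-0.96), the purine-cytosine permease. These are correlations over 18 arrays of 6 strains, given with no test.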
